A study of Mus musculus with 4 samples.

Results

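Enteroendocrine cells are scattered hormone-secreting cells of the intestinal epithelium, and 9 genes that build or mark them were followed here. Of these, 6 encode transcription factors (Neurog3, Neurod1, Insm1, Pax4, Pax6 and Isl1) and 3 encode granins (Chga, Chgb and Scg2). They were chosen by gene symbol, and they are 9 of the 37325 gene names on the array, with 16 of its 56605 non-control probes. RNA from mechanically scraped mouse epithelium was measured on 1-colour (Cy3) Agilent arrays in 4 groups: ileum of DAO G181R/G181R mice, ileum of DAO wt/wt mice, jejunum of DAO G181R/G181R mice and jejunum of DAO wt/wt mice. All mice were 9 weeks old, on a C57BL/6J background and Tcrbd-/-, a deletion of the T cell receptor beta and delta loci that both genotypes share and that leaves no T cells with a receptor. DAO is D-amino acid oxidase, an enzyme that breaks down D-amino acids, and the G181R form is known to abolish most of its activity. Every group was 1 array, hybridised with RNA pooled from 5 mice, so there was no replicate, no test and no error between animals in any comparison.

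In the mouse intestine, a progenitor commits to the enteroendocrine fate when Neurog3 is switched on for a short time, under restraint by Notch signalling. Neurog3 then turns on Neurod1, Insm1, Pax4, Pax6 and Isl1, which sort the cells into hormone-producing subtypes and keep the hormone genes on. Granins are acidic proteins that are packed with hormones into dense-core granules, where they help the granule to form. Enteric neurons also have dense-core granules and granins, and some of them express Isl1.

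Signals are processed intensities as the scanner software gives them. Differences are log2 values after subtracting each array's 75th percentile signal, which was 175.1 in G181R ileum, 184.8 in wild-type ileum, 159.7 in G181R jejunum and 156.1 in wild-type jejunum. A probe counted as measured in a comparison when it was flagged well above background on both arrays, and a difference was counted from 2-fold, which is 1 on the log2 scale. The arrays were alike in quality: 57.4% to 60.4% of probes were well above background, and no spot was saturated. All 4 arrays lay on the same slide and were scanned together, so slide and scan could not differ between groups. The only spread at hand was that between the 10 spots of 300 repeated probes. The SD of their log2 differences between the genotypes of ileum had a median of 0.056 for signals from 1000, 0.10 from 100 to 1000, 0.17 from 30 to 100 and 0.25 from 10 to 30. That spread leaves out mice, pools and labelling. Of the 16 probes, 10 were well above background on all 4 arrays and 4 on none, and each member but Neurog3 was measured on all 4 arrays by at least 1 probe. In every count a gene was read by 1 probe, the one with the highest mean over the arrays.

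The largest pattern was between tissues: in both genotypes Chga, Chgb and, by its brightest probe, Pax6 were lower in ileum than in jejunum. Between genotypes, the 3 granins were 1.45-fold to 1.88-fold lower in G181R than in wild-type ileum, and lower by 1.15-fold or less in jejunum. Neurod1, Insm1 and Isl1, as read by their brightest probes, differed by 1.19-fold or less between genotypes in either tissue. Pax6 had the largest differences, but its probes did not give the same values. In bulk tissue, fewer cells of a type and less RNA per cell cannot be told apart.

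**Figure D1:**
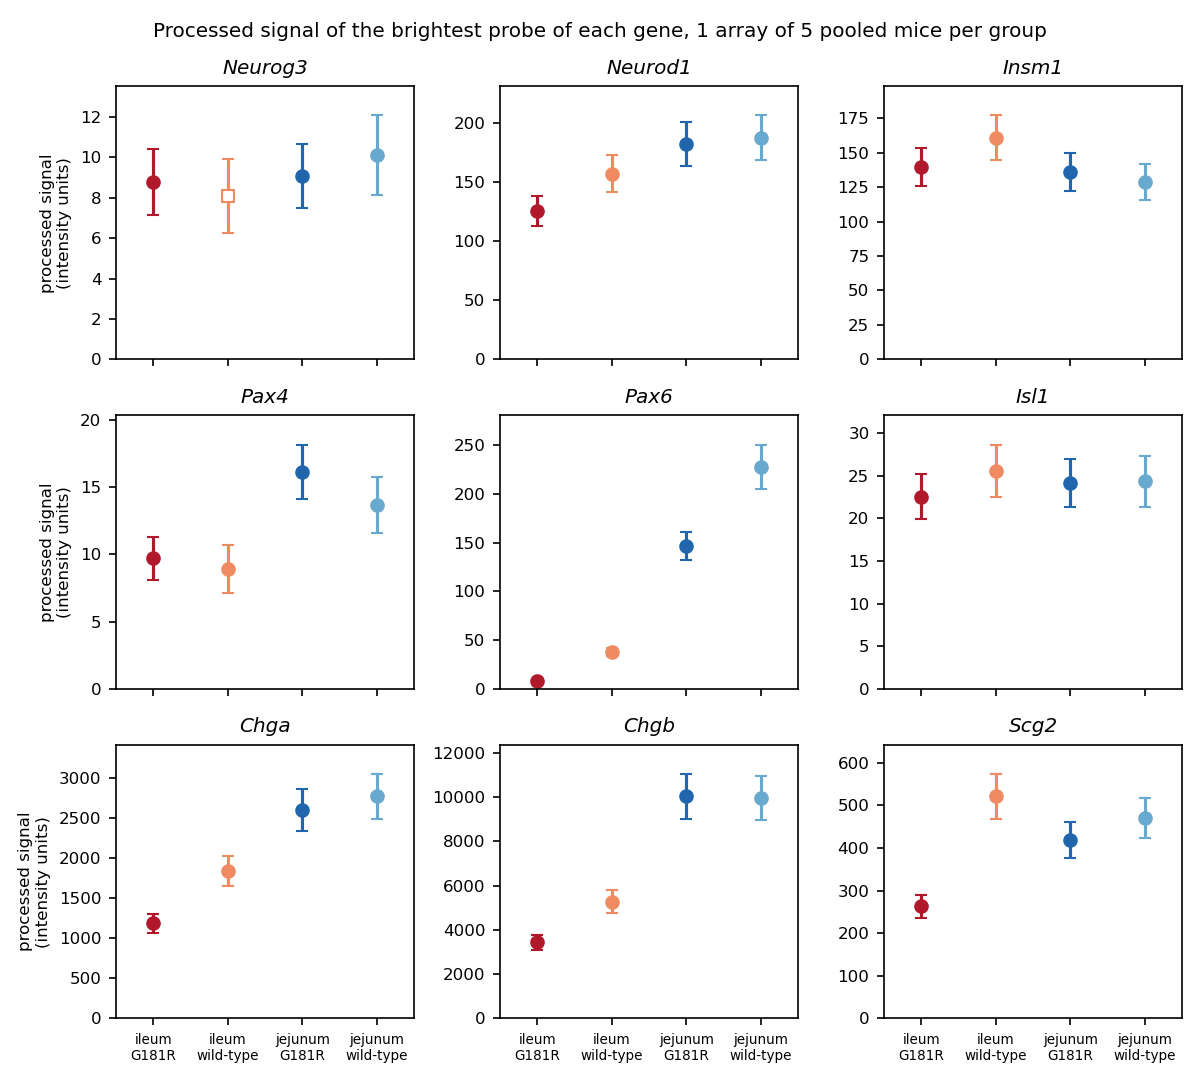
Processed signal (intensity units, linear axes from 0) of the brightest probe of each of the 9 genes on the 4 arrays, with bars of 1 signal error as estimated by the scanner software; the open square was not well above background. The granins and Pax6 sit lowest in G181R ileum, while Insm1 and Isl1 stay level across the arrays.

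The sequences that carry the values for the gene with the largest difference are shown first. The brightest Pax6 probe lies on chromosome 2, chr2:105535591-105536463 on the plus strand (mm9). Its 60 bases span 873 bases of the genome, so the probe bridges an intron. The other pair shown here, A_52_P469306 (chr2:105524098-105524949, plus strand) and A_55_P2719489 (chr2:105524106-105525093, plus strand), read alternative joins of the Pax6 paired domain, the DNA-binding part of the protein. Pax6 is known to be spliced with or without a short alternative exon there. Capitals mark the letters after the run of 10 bases that both probes share, 42 and 50 letters in turn.
A_52_P565559: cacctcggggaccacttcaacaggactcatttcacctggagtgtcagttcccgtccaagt
A_52_P469306: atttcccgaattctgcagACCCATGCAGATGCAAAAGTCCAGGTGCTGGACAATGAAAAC
A_55_P2719489: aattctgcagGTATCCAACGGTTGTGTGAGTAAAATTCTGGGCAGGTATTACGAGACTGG
Neither paired-domain probe was well above background on any array, so these arrays give no reading of which join was used.

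Neurog3 encodes the basic helix-loop-helix factor that starts the lineage. Its brightest probe (chromosome 10, 61596570 to 61596629, mm9) had signals of 8.77 in G181R ileum, 8.08 in wild-type ileum, 9.07 in G181R jejunum and 10.1 in wild-type jejunum. The wild-type ileum value was not well above background. After scaling, the G181R ileum signal was 1.15-fold above it. The scanner software's errors overlap there (8.77 ± 1.62 in G181R and 8.08 ± 1.82 in wild-type ileum), so no minimum difference can be given. The measured differences were -0.19 between the genotypes of jejunum and -0.18 between ileum and jejunum in G181R mice. All 4 signals lay near the lowest signal that passed as well above background, which was between 5.83 and 7.36. The measured differences were smaller than the spot spread of probes with signals of 10 to 30, and almost no repeated probe was as dim as this one. The other Neurog3 probe (61596051 to 61596110) was well above background in G181R ileum alone, with signals of 24.3 there, 1.55 in wild-type ileum, 1.27 in G181R jejunum and 1.63 in wild-type jejunum. The bounds were at least 3.57-fold higher in G181R than in wild-type ileum and at least 3.80-fold higher in G181R ileum than in G181R jejunum. That reading rests on 1 spot with a mean pixel signal of 48.2 (pixel SD 15.6) over a local background of 25.5, and the brighter Neurog3 probe does not show it.

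Neurod1 encodes a helix-loop-helix factor that acts just after Neurog3, and its probe lies on chromosome 2 at 79292819 to 79292878 (minus strand). Its signals were 125.9 in G181R ileum, 157.6 in wild-type ileum, 182.5 in G181R jejunum and 188.1 in wild-type jejunum. Neurod1 was thus lower in ileum than in jejunum, by 1.59-fold in G181R mice (log2 -0.67) and by 1.41-fold in wild-type mice (log2 -0.50). The genotype difference was -0.25 in ileum, over the spot spread of probes of this brightness, and -0.08 in jejunum, below it.

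Insm1 encodes a zinc finger repressor that is needed for endocrine differentiation, with a probe on chromosome 2 at 146050603 to 146050662. It was the most even of the 9 genes: signals were 139.6 in G181R ileum, 160.8 in wild-type ileum, 135.9 in G181R jejunum and 128.9 in wild-type jejunum. After scaling, its highest and lowest arrays were 1.09-fold apart. The genotype differences were -0.13 in ileum and 0.04 in jejunum, and those between tissues were -0.09 in G181R and 0.07 in wild-type mice, all close to or under the spot spread.

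Pax4, a paired-homeodomain repressor, is needed in the mouse for several intestinal endocrine subtypes. Its probe (chromosome 6, 28392356 to 28392415, minus strand) was dim, at 9.69 in G181R ileum, 8.91 in wild-type ileum, 16.1 in G181R jejunum and 13.7 in wild-type jejunum. Both ileum arrays were below both jejunum arrays, by 1.82-fold in each genotype (log2 -0.87 in G181R and -0.86 in wild-type mice). Its genotype differences were 0.20 in both tissues, under the spot spread of probes with signals of 10 to 30. Pax4 was thus the 1 member whose measured genotype difference was above 0 in ileum, and its tissue difference was -0.23 in G181R and -0.28 in wild-type mice with another background correction, normexp, which pulls dim signals together.

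Isl1 encodes a LIM-homeodomain factor of several hormone-producing subtypes. Its brighter probe (chromosome 13, 117088774 to 117088833, minus strand) had signals of 22.6 in G181R ileum, 25.6 in wild-type ileum, 24.2 in G181R jejunum and 24.4 in wild-type jejunum. All its differences were between -0.23 and -0.04, within the spot spread of dim probes. The dimmer probe (117099604 to 117099663) read 9.96 in G181R ileum, 16.5 in wild-type ileum, 8.55 in G181R jejunum and 7.998 in wild-type jejunum. It stood higher in wild-type ileum than on the other 3 arrays, with a genotype difference of -0.65 in ileum and 0.06 in jejunum, which its brighter partner does not share.

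Pax6 encodes a paired and homeodomain factor that activates hormone genes, among them proglucagon. Its brightest probe had signals of 8.37 ± 1.5 in G181R ileum, 38.0 ± 4.08 in wild-type ileum, 146.6 ± 14.7 in G181R jejunum and 227.5 ± 22.8 in wild-type jejunum, where the error is the scanner software's own. No 2 of these intervals overlap, but each comes from 1 spot before scaling and leaves out mice, pools and labelling. By this probe Pax6 was 4.30-fold lower in G181R than in wild-type ileum (log2 -2.10) and 1.59-fold lower in jejunum (log2 -0.67). In G181R mice its ileum level was 19.2-fold below that of jejunum (log2 -4.26), and in wild-type mice it was 7.09-fold below (log2 -2.83). These sizes depend on the processing: with normexp they were -1.77 in G181R and -1.80 in wild-type mice, and with the mean over all 6 probes -0.80 and -0.79, below 2-fold.

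The probe at the 3′ end of Pax6 (105537277 to 105537336), which begins 1686 bases downstream of the brightest one, gave another pattern. Its signals were 14.0 in G181R ileum, 16.2 in wild-type ileum, 13.9 in G181R jejunum and 26.8 in wild-type jejunum. Here wild-type jejunum stood apart and the other 3 arrays were close together. The genotype differences were -0.13 in ileum and -0.98 in jejunum, the reverse order of those of the brightest probe. The ileum to jejunum differences were -0.12 in G181R and -0.97 in wild-type mice, with no 2-fold difference in any comparison. The other 4 Pax6 probes, which begin 12636 to 14102 bases upstream of the 3′ probe, had signals of 1.17 to 1.96 and were well above background on no array. Both measured probes had values below 0 in all 4 differences, with unlike sizes, and the values of -0.13 and -0.12 from the 3′ probe lie under the spot spread. With normexp background correction the brightest probe gave -0.49 in ileum and -0.52 in jejunum between genotypes.

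**Figure D2:**
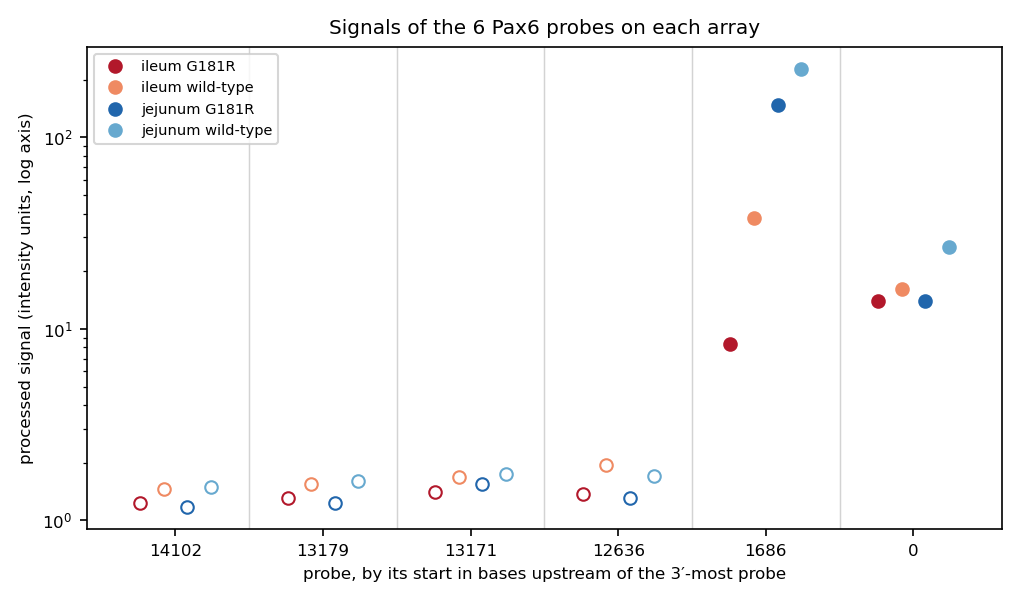
Processed signals (intensity units, log axis) of the 6 Pax6 probes on the 4 arrays, each probe in its own column by its start upstream of the 3′ probe in bases; filled points were well above background, and levels are comparable within a column only. The brightest probe spreads from 8.37 in G181R ileum to 227.5 in wild-type jejunum, while the 3′ probe spans 13.9 to 26.8 and the 4 upstream probes stay at 1.17 to 1.96.

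Chga encodes chromogranin A, the general marker of endocrine cells. Its probe (chromosome 12, 103803083 to 103803142) had signals of 1187 in G181R ileum, 1839 in wild-type ileum, 2601 in G181R jejunum and 2769 in wild-type jejunum. Chga was 1.47-fold lower in G181R than in wild-type ileum (log2 -0.55) and 1.09-fold lower in jejunum (log2 -0.12). Between tissues, it was 2.40-fold lower in ileum in G181R mice (log2 -1.26) and 1.78-fold lower in wild-type mice (log2 -0.83).

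Chgb encodes chromogranin B and was printed 10 times, so its spot spread is known directly (chromosome 2, 132620703 to 132620762). Its mean signals were 3443 ± 175 in G181R ileum, 5271 ± 265 in wild-type ileum, 10029 ± 333 in G181R jejunum and 9972 ± 353 in wild-type jejunum (SD over 10 spots of 1 array). In ileum the spots ran from 3234 to 3727 in G181R and from 4888 to 5752 in wild-type mice, with no overlap, and in jejunum from 9368 to 10520 in G181R and from 9379 to 10583 in wild-type mice. These are signals before scaling, and the spots of 1 array carry no spread between mice, pools or labelling. After scaling, Chgb was 1.45-fold lower in G181R than in wild-type ileum (log2 -0.54), while the jejunum difference was -0.03, with overlapping spots. The ileum level was 3.20-fold below that of jejunum in G181R mice (log2 -1.68) and 2.24-fold below it in wild-type mice (log2 -1.16).

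Scg2 encodes secretogranin II, the precursor of the peptide secretoneurin, and its probe lies on chromosome 1 at 79431323 to 79431382 (minus strand). Signals were 262.7 in G181R ileum, 521.2 in wild-type ileum, 419.4 in G181R jejunum and 469.7 in wild-type jejunum. G181R ileum was the low array. Scg2 was 1.88-fold lower in G181R than in wild-type ileum (log2 -0.91) and 1.15-fold lower in jejunum (log2 -0.20). Unlike Chga and Chgb, it was nearly level between the tissues of wild-type mice (log2 -0.09), and 1.75-fold lower in ileum in G181R mice (log2 -0.81).

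In the order of levels after scaling, which can turn close signals round, wild-type jejunum was highest and G181R ileum lowest for Neurod1, Pax6, Isl1, Chga, Chgb and Scg2. For Neurod1, Isl1, Chga and Chgb, the neighbouring jejunum arrays did not differ beyond the scanner software's error. The span over the 4 arrays was 30.5-fold for Pax6, 3.25-fold for Chgb, 2.62-fold for Chga, 2.09-fold for Pax4 and 2.01-fold for Scg2, and 1.68-fold or less for Neurod1, Neurog3, Isl1 and Insm1.

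Set against all genes, 0 of 9 measured members were 2-fold different between the genotypes of jejunum, where 1.51% of 21354 measured genes were (0.763% higher and 0.749% lower). In ileum 1 of 8 measured members, Pax6, was at least 2-fold lower in G181R mice, beside 5.21% of 21608 genes in either direction and 3.21% lower. The median member difference was -0.39 in ileum, with 7 of 8 below 0, against a median of 0.03 over all genes, of which 46.8% were below 0. The 10th percentile of all genes in ileum was -0.53, so Chgb at -0.54 and Chga at -0.55 lay just below it. Scg2 lay further below, at -0.91. In jejunum the member median was -0.08, with 7 of 9 below 0, against -0.01 over all genes, of which 51.7% were below 0. The count in ileum rests on the brightest Pax6 probe alone: with normexp, or with the mean over all probes of a gene, it was 0. That mean includes the Pax6 probes at background, which shrinks the difference by construction.

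Between tissues, 3 of 9 members (Pax6, Chga and Chgb) of G181R mice had an ileum level at least 2-fold below that of jejunum, and 8.73% of 21605 genes were lower by as much (7.3% higher, 16% in either direction). In wild-type mice 2 of 8 (Pax6 and Chgb) were, beside 9.11% of 20879 genes (7.42% higher, 16.5% in either direction). All 9 members were below 0 in G181R mice with a median of -0.81, and 7 of 8 were in wild-type mice with a median of -0.67. Over all genes the medians were -0.03 in G181R and -0.05 in wild-type mice, with 52.0% and 53.4% below 0. With the mean over all probes of a gene, those at background included, Pax6 was below 2-fold in both genotypes. Neurog3 turned to 1.97 in G181R mice through the probe that was seen in G181R ileum alone. The comparisons share arrays, so their member counts are not independent of each other.

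The difference between the genotype differences, ileum minus jejunum, was below 0 for all 8 members that could be read on the 4 arrays, with a median of -0.30 against 0.01 over all 20543 genes, of which 48.2% were below 0. It was -1.44 for Pax6, -0.71 for Scg2, -0.51 for Chgb, -0.43 for Chga, -0.17 for both Neurod1 and Insm1, -0.06 for Isl1 and -0.004 for Pax4. Of the 8, Pax6 alone passed 2-fold, as 3.81% of all genes did (2.06% lower), and its 3′ probe gave 0.85 and normexp 0.029. For Pax4 the sign turned to above 0 (0.02 to 0.05) with the array median, quantile normalization or normexp, and for Isl1 (0.07) with normexp. The values for the granins were below 0 under each scaling, background correction and source of values tried.

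**Figure D3:**
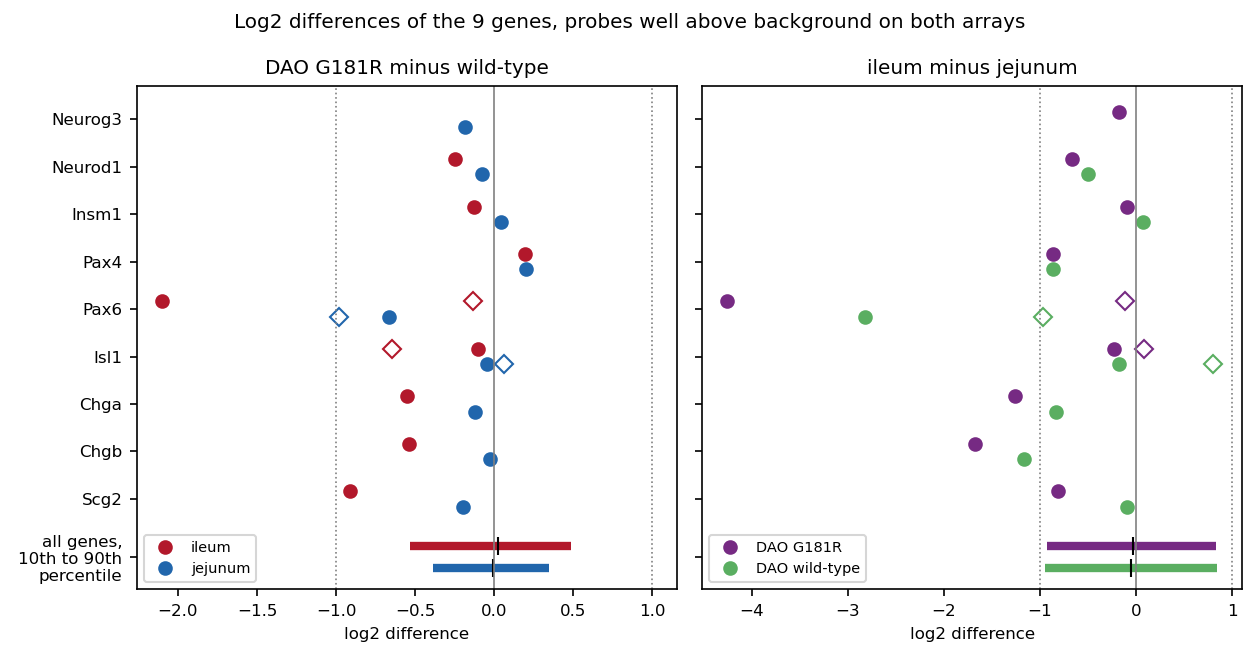
Log2 differences of the 9 genes, DAO G181R minus wild-type on the left and ileum minus jejunum on the right, for probes well above background on both arrays; filled circles are the brightest probe, open diamonds another probe, dotted lines mark 2-fold, and bars give the 10th to 90th percentile of all measured genes with the median. The granins lie at -0.91 to -0.54 in ileum and at -0.20 to -0.03 in jejunum, and the 2 Pax6 probes lie apart.

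Other genes of the pathway were read from lists that were chosen with earlier results of these data known, and each is set beside its counts. For every list below, 46.8% of all measured genes were below 0 in ileum and 51.7% in jejunum. In ileum 3.21% of all genes were at least 2-fold lower and 2% at least 2-fold higher in G181R mice. Of 23 other transcription factors of the endocrine lineage, 17 were measured in ileum, with a median of -0.40. In G181R ileum 16 of the 17 were below 0, 3 were at least 2-fold lower and none was 2-fold higher. Lmx1a, a factor of serotonin-producing cells in the mouse, had 18.2 in G181R against 48.3 in wild-type ileum (log2 -1.33) and did not differ in jejunum (53.1 in G181R and 52.1 in wild-type, log2 -0.00). Runx1t1, a transcriptional corepressor, was at -1.04 in ileum and 0.12 in jejunum. The third, Mlxipl, a carbohydrate-responsive factor that enterocytes also express, is named after its value was seen (-1.03 in ileum, with another of its probes at 0.19). The highest was Hhex, a homeobox factor of somatostatin cells, at 0.52 in ileum and -0.23 in jejunum, followed by St18, a zinc finger factor, at -0.06 in ileum and 0.49 in jejunum. In jejunum, 10 of 18 measured factors were above 0 and 8 below, with a median of 0.04 and none 2-fold different.

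The secretory lineage and Notch genes were near 0 by their median, with single genes on both sides. All 17 were measured, with a median of 0.05 in ileum and 0.05 in jejunum, with 9 of 17 above 0 in ileum and 12 of 17 in jejunum. Id2, an inhibitor of helix-loop-helix factors, was the 1 gene at 2-fold, with 314.0 in G181R against 679.7 in wild-type ileum (log2 -1.04), and its relative Id1 stood at the other end with 0.62. The Notch ligand Dll4 was at 0.43 and the Notch target Hey1 at -0.52 in ileum. Atoh1 and the Notch ligand Dll1, named after their values were seen, were at -0.43 and -0.51 in ileum. In jejunum they were at 0.05 and 0.01.

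The genes that process prohormones and release granules leaned the way of the granins in ileum, with little at 2-fold. Of 11 measured genes of the other granins and prohormone processing, 8 were below 0 in G181R ileum (median -0.27) and none was 2-fold different. Cpe, the carboxypeptidase that trims prohormones, had signals of 734.2 in G181R against 1299 in wild-type ileum (log2 -0.75), and a difference of 0.01 in jejunum. Resp18, a protein of endocrine secretory granules, was at -0.83, while Nucb2, the nesfatin precursor, was at 0.60 and Pcsk2, a prohormone convertase, at 0.41. The jejunum median of this list was 0.01, with 7 of 11 above 0.

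Of 18 measured genes of granule exocytosis, 14 were below 0 in G181R ileum (median -0.23), and Rab3c, a small GTPase of secretory vesicles, was the 1 at 2-fold, with 9.24 in G181R against 25.9 in wild-type ileum (log2 -1.41). Scgn and Syt7 were well above background in wild-type ileum alone and are outside this count. Their signals in G181R against wild-type ileum were 5.74 against 14.3 for Scgn and 5.02 against 11.1 for Syt7. Rab3b was at -0.82, Unc13a, a vesicle priming factor, at 0.11, and Snap25, a membrane fusion protein, at 0.50 in ileum and 0.54 in jejunum. In jejunum the list median was 0.09 over 16 genes.

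Of the hormones and Tph1, 12 were measured in ileum and 9 were below 0 (median -0.31). Tph1, the enzyme that makes serotonin precursor, was at -0.81 and neurotensin (Nts) at -0.70 in ileum, against -0.12 and -0.01 in jejunum. Tac1, the precursor of substance P, ran the other way, with 5990 in G181R against 692.3 in wild-type ileum (log2 3.19), and cholecystokinin (Cck) was at 0.33. Tac1 is also made by enteric neurons, which have granins and dense-core granules too. In jejunum the hormones had a median of -0.06, again with 9 of 12 below 0. Of the nutrient sensors and channels of endocrine cells, 7 were measured, with a median of -0.28 in ileum and 0.03 in jejunum, from Cacna1a, a calcium channel subunit, at -0.76 to Ffar4, a fatty acid receptor, at 0.73. Next to these ends were Gpbar1, a bile acid receptor, at -0.31 and Trpa1, an irritant-sensing channel, at -0.047.

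**Figure D4:**
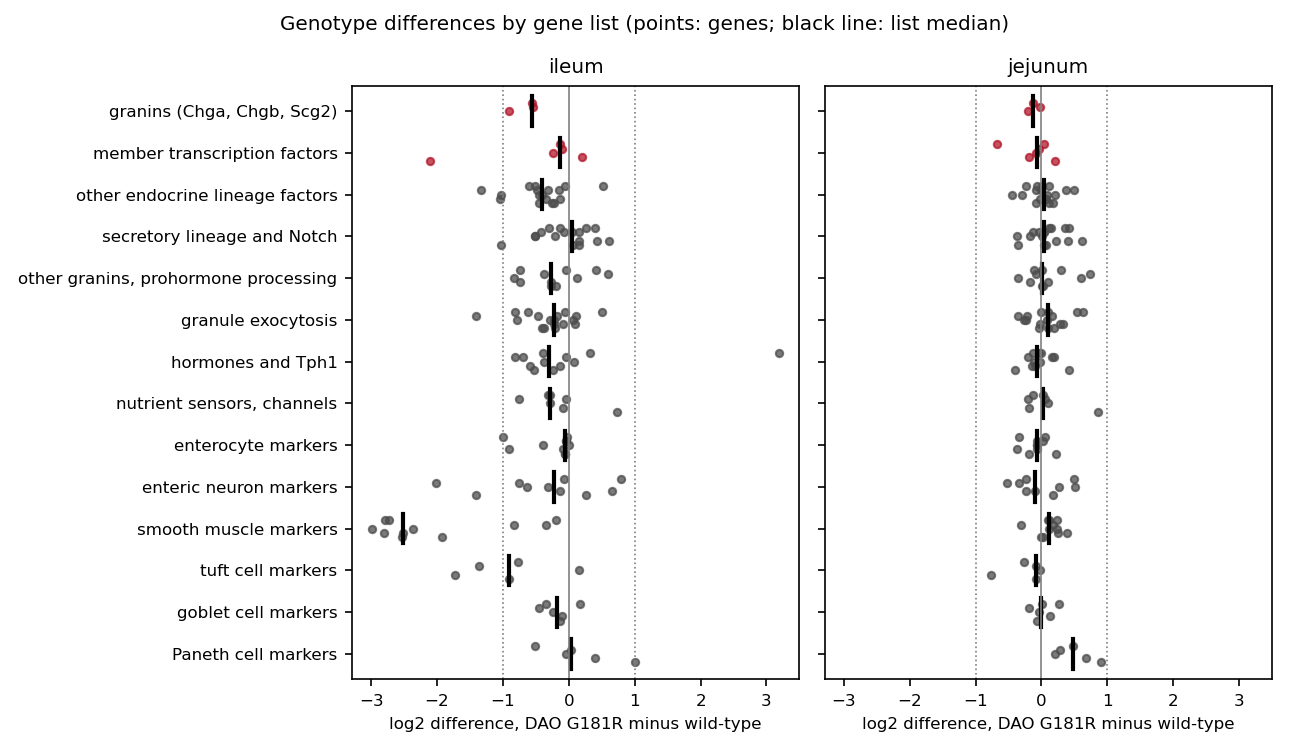
Log2 differences of the measured genes by list, DAO G181R minus wild-type, in ileum (left) and jejunum (right); each point is a gene, black lines are list medians, dotted lines mark 2-fold, and red points are the 9 genes. In ileum the granin median is -0.55 and the smooth muscle marker median is -2.51, while in jejunum these medians are -0.12 and 0.12.

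Markers of other cell types were set beside these values, because a scraping can take up tissue below the epithelium. On every array 10 of 10 enterocyte markers were well above background. Their summed levels, each signal over its array's 75th percentile, were 2392 in G181R ileum, 2550 in wild-type ileum, 2781 in G181R jejunum and 2943 in wild-type jejunum. Of 12 smooth muscle markers, 11 or 12 were also well above background on each array. The enterocyte count thus cannot show that the samples were epithelium alone. Smooth muscle markers differed strongly in ileum: 8 of 11 measured were at least 2-fold lower in G181R, beside 3.21% of all genes. The markers had a median of -2.51 (Synm -2.98 and Synpo2 -2.81, and -0.86 at another Synpo2 probe). Their summed level was 52.8 in G181R ileum, against 121.0 in wild-type ileum, and 76.5 in G181R jejunum, against 76.9 in wild-type jejunum.

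Enteric neuron markers are the ones that bear most on granins and Isl1. Of the 16 markers, 10 were well above background in G181R ileum, 15 in wild-type ileum, 13 in G181R jejunum and 9 in wild-type jejunum. Stmn2, a neuronal microtubule regulator, had 27.0 in G181R against 114.9 in wild-type ileum (log2 -2.01), and Uchl1, a neuronal ubiquitin hydrolase, was at -1.41. Over the 10 neuron markers measured in ileum the median was -0.22, with 7 below 0 and 3 above. The 3 above 0, named after their values were seen, were Ret at 0.80, Tubb3 at 0.65 and Nos1 at 0.26. The summed neuron level was 3.45 in G181R ileum, against 4.80 in wild-type ileum, and 3.18 in G181R jejunum, against 3.42 in wild-type jejunum. The summed level of the granins was 27.9 in G181R ileum, against 41.3 in wild-type ileum, and 81.7 in G181R jejunum, against 84.6 in wild-type jejunum. The neuron, smooth muscle and granin sums were all lower in G181R than in wild-type ileum. Over the 4 arrays, the neuron and smooth muscle sums were highest in wild-type ileum and the granin sum in wild-type jejunum. The part of these tissues in the ileum genotype differences of the granins, Isl1, Pax6 and the genes of the pathway lists was not tested.

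Several other lists were also lower in G181R ileum, some with medians below the granin median of -0.55. Tuft cell markers had a median of -0.91 over 5 genes (Sucnr1 -1.73 and Dclk1 -1.37), fibroblast markers -0.64 over 6 (Lum -1.13 and Col1a1 -0.66), and red cell genes -0.63 over 4 (Alas2 -0.72 and Hbb-bt -0.68). Below 0 were 4 of the 5 tuft cell markers and all of the fibroblast markers and red cell genes. Goblet cell markers were at -0.18, Paneth cell markers at 0.03, enterocyte markers at -0.06, endothelial markers at -0.26, glial markers at -0.40 over 3 and interstitial cell of Cajal markers at -0.63 over 4. Pancreatic islets share all 6 transcription factors, but Ins1, Ins2, Ppy, Slc30a8 and G6pc2, 5 of the 6 islet markers on the list, were well above background on none of the 4 arrays. The sixth, Mafa, was well above background on all 4, with 443.9 in G181R ileum, 393.2 in wild-type ileum, 441.8 in G181R jejunum and 434.5 in wild-type jejunum.

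The promoters of the 3 granins are shown because Chga, Chgb and Scg2 lay in the same direction in ileum and granin promoters are known to carry a cAMP response element. The letters are the 120 bases upstream of the RefSeq start (GRCm38.p6), on the gene's strand, with the motif TGACGTNA in capitals. They come from chr12:102554821-102554940 for Chga (plus strand), chr2:132781522-132781641 for Chgb (plus strand) and chr1:79440027-79440146 for Scg2 (minus strand).
Chga: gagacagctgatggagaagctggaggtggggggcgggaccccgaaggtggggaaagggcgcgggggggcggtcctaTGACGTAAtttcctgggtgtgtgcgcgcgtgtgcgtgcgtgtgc
Chgb: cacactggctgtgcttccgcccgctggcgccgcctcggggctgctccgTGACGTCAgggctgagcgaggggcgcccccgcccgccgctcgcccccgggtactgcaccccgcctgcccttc
Scg2: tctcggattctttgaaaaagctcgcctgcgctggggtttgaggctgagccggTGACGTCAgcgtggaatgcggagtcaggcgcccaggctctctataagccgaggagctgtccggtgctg
The match begins 44 bases upstream of the start in Chga, 72 in Chgb and 68 in Scg2. TGACGTNA was searched on both strands of the 250 bases upstream of each start, and 828 of 32851 promoters (2.52%) hold it. Of the members, 7 matched the RefSeq table by symbol, and 4 of their 8 promoters hold the motif: those of the 3 granins and 1 of the 2 Pax6 promoters, at 76 bases upstream. Neurog3, Neurod1 and Isl1 have no match in this window, and Pax4 and Insm1 are named only. A match is a run of letters and not a measured binding site.

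Genes with the most similar pattern were found for the 5 members that were measured on all 4 arrays and spanned at least 2-fold. Likeness was the Euclidean distance between log2 levels centred over the 4 arrays, over 13819 named genes. Nearest to Pax6 were Nup155 at 0.16, Tmem178 at 0.21 and Mcpt-ps1 at 0.23, and 6 genes in all lay within 0.3, the sparsest neighbourhood of the 5. Nup155 had 108.8 in G181R ileum, 567.3 in wild-type ileum, 2104 in G181R jejunum and 3338 in wild-type jejunum, so that its span followed that of the brightest Pax6 probe. Nearest to Chga were Clec4a1 at 0.03, Igfbp7 at 0.06 and Rtl8b at 0.06, with 287 genes within 0.3. Nearest to Chgb were Hal at 0.06, Thra at 0.07 and Aldh3b1 at 0.08, with 138. Nearest to Scg2 were Tns2 at 0.07, Cavin3 at 0.08 and Slc34a3 at 0.09, with 174, and nearest to Pax4 were B3glct at 0.04, Slc30a6 at 0.08 and Ift20 at 0.09, with 448. With 4 arrays a distance this small is common, as the numbers within 0.3 show, and the granins were not among each other's nearest 3.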

How the data were processed

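The 9 genes and all lists were chosen with earlier results of these data known. Per the file headers, the scanner files' intensity values were made with Agilent Feature Extraction 11.5.1.1, which subtracted background and detrended every array by itself, and no step scaled the arrays to each other. Other values in the deposited scanner files are 0 or 1 flags per spot (well above background, saturated, outlying). The authors' deposited value table holds log2 values. Its scaling step is not given in the sources used here, and 2442 of its probes hold a fill value, none of them a probe of the 9 genes. It served as an alternative source only.

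Outlier spots were left out, log2 processed signals were averaged over the spots of a probe, and the 75th percentile of the array's non-control probes was taken off (Python 3.11.15, pandas 2.3.3; normexp with offset 50 in limma 3.58.1). Symbols of 32994 probes came from the GRCm38.p6 RefSeq table. The brightest probe stood for a gene. With 1 array per group there is no test, and "at least N-fold" is the bright signal over the other array's lowest signal well above background, or the probe's own signal there if higher. The counting was tested on simulated data. Probe positions are mm9, as the files give them, and exon and UTR annotation was not analysed here. Named list genes are the 2 highest and 2 lowest in ileum of each pathway list and up to 2 with the largest ileum difference of each marker list. The number of arrays limits the precision. Alternatives were other scalings, normexp, the mean over probes, no filter on dim probes, outlier spots kept and the deposited table. The values of 1 marker gene are not reported here.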

Additional observations from a re-analysis of the deposited data

Results flagged for a closer look

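Insm1 had genotype differences of opposite sign in the tissues, -0.13 in ileum and 0.04 in jejunum, 0.17 lower in ileum on the log2 scale (a difference of -0.17). The difference was not tested, since each group is 1 array, and both values lie close to the spread between repeated spots of similar brightness.

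The dimmer Neurog3 probe gave a signal well above background in G181R ileum alone, at least 3.57-fold higher than in wild-type ileum. It was not used in the counts over genes, which rest on the brighter Neurog3 probe.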

How the results depend on the processing

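No paired analysis was possible because each group is 1 array and the labels give no replicate numbers. The granins kept their direction in ileum, from -0.60 to -0.51 for Chga, -0.56 to -0.49 for Chgb and -0.93 to -0.80 for Scg2 between genotypes, under all 8 alternatives. Of these, the mean over probes and the lack of a filter could not change them, since each granin has 1 probe, measured on every array. Keeping outlier spots gave the same granin values. Pax6 ranged from -2.12 to -0.49 there. The number of the 9 genes at least 2-fold different between genotypes in ileum was 0 with normexp and 0 with the mean over probes, in place of 1. For the difference of differences it was likewise 0 with both, and the Pax6 value was 0.029 with normexp, in place of -1.44. Between tissues in wild-type mice it was 1 with the mean over probes, in place of 2. In G181R mice it was 3 as before, but with 1 higher (Neurog3, 1.97 in place of -0.18) and 2 lower, since Pax6 was at -0.80. With normexp, genes at least 2-fold different numbered 396 between genotypes in ileum and 93 in jejunum, 1744 between tissues in G181R and 1801 in wild-type mice, and 226 for the difference of differences, in place of 1125, 323, 3465, 3451 and 783. The share higher among them in jejunum was 64.5% in place of 50.5%. Without the filter on dim probes the 5 counts were 3536, 2839, 6917, 7032 and 5043. Of 42 single values for the 9 genes, 21 moved by more than a median spot spread with normexp. In addition, 1 more, the Pax6 difference of differences, changed sign after being counted at 2-fold, and the Pax6 call in ileum was lost. The spread used here was the median over repeated probes of any brightness, 0.056 to 0.058 for differences between arrays and wider for the difference of differences. Most of those probes are bright, so a dim gene can count as moved within the spread of its own brightness. Of the same 42, 11 moved with the mean over probes, 8 with each of quantile normalization and the percentile over detected probes, and 0 with the others. The 8 with the percentile over detected probes were all ileum minus jejunum in wild-type mice, where that scaling shifts each gene by the same amount. Normexp draws dim signals together by its construction. The mean over probes takes in probes at background, among them 4 of the 6 for Pax6, whose difference it shrinks by construction. The Neurog3 value of 1.97 includes a probe that was not well above background in G181R jejunum. The cause of the differences between Pax6 probes was not tested. Signals of Neurog3, Pax4, the dimmer Isl1 probe and Pax6 in G181R ileum lay close to background, which limits their differences.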
